A study of Malus domestica with 16 samples.

Results

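Lipid, wax and cuticle genes of stored apple peel were read from 33 sense probes, 1 for each of 33 gene models, among the 59352 sense probes of the array. They are the genes whose function name, among the 1483 readable rows of the study's list of differentially expressed genes, holds a term such as lipid, lipase, desaturase, acyl-CoA or wax. Names with a kinase, a transporter, a photosystem or a transcription factor family were left out. The members were therefore selected on measured values, since all 33 stand in that list as higher in 1-MCP than in Control peel, and their ratios in 1-MCP vs Control are given as a description without a test. The readable rows end within the genes listed for 1-MCP vs Control alone, so genes listed in further comparisons are over-represented among them. For this reason the share of members called in the other comparisons was set beside the 1429 other readable rows chosen the same way, as well as beside all sense probes.

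Peel of Granny Smith apples, a green cultivar prone to the storage disorder superficial scald, was compared after cold storage for 6 months (0 °C, relative humidity 95%), without ripening at room temperature. The study calls this stage presymptomatic, but its text also describes scald on Control and O3 fruit at that time. The 1-MCP fruit had received 1-methylcyclopropene, a blocker of ethylene receptors, for 24 h before storage, at 1000 ppm by the labels and at another dose by the methods. The 1-MCP+O3 fruit had received the same treatment and were then stored in air enriched with ozone (O3) at 0.3 μl/L, the O3 fruit had ozone storage alone, and the Control fruit had neither. Storage with and without O3 took place in separate cold rooms, so O3 and room cannot be told apart. Each group had 2 RNA extracts, A and B, each from the peel of 7 fruits. The extracts were hybridised in pairs of the same letter on 8 two-colour arrays, 2 for each of 4 comparisons, so that every ratio below is given for array A and array B and every mean has n = 2. The Control extracts were used on 6 arrays, and all 3 comparisons with Control share them. 1-MCP vs Control and 1-MCP+O3 vs O3 have no extract in common.

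The cuticle is the waxy skin of a fruit and limits water loss. Its waxes are made from very-long-chain fatty acids, which are built from the products of plastid fatty acid synthesis by condensing enzymes of the endoplasmic reticulum and then turned into alkanes, aldehydes and alcohols, while cutin is a polyester of hydroxylated fatty acids of shorter chain. Lipid transfer proteins bind such lipids, several of them in the cell wall, and GDSL lipases form a large family of secreted esterases. The roles given below are those of the Arabidopsis genes to which the apple models were matched.

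Not every member is a gene of lipid metabolism. By role, 6 members belong to wax and cutin synthesis, 4 to fatty acid synthesis and desaturation, 6 to lipid transfer and 7 to lipases. A further 7 are plastid proteins, among them the carotenoid enzyme ZDS and 3 thylakoid lumen proteins whose names carry a GDSL term. Of the other 3, a pair is matched to the chaperone HSP101 and entered through a second name, and 1 holds a lipid-binding START domain. The 33 members have 25 different Arabidopsis matches, 7 of which are shared by 15 members, and members with the same match may hybridise with each other's RNA. No marker of peel cells independent of the list was at hand, so the tissue label was not checked. In bulk peel, fewer cells of a type and less RNA per cell cannot be told apart.

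Spots well above background made up 47.8% to 54.9% of an array in the Cy3 channel, and 36.1% to 43.6% in Cy5. Of the members, 22 were above background on every array in both channels and 0 were saturated. The dye of a group was switched between array A and array B, so a difference between the 2 arrays can come from dye or from the extracts. The number of arrays limits the precision of every value.

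In 1-MCP vs Control, the comparison that chose them, all 33 members were higher on both arrays, the log2 ratios running from 0.49 to 3.09 around a median of 1.05. At an unadjusted p under 0.01 in limma, the threshold used throughout for a call, 29 of them passed as higher in this processing, against 2.26% of all sense probes, and 26.4% of all sense probes were higher on both arrays. Nothing is read from these counts. The lowest ratio of a member was that of ZDS, at 0.71 and 0.27 on arrays A and B, and the list was cut on a p-value and not on a ratio.

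Where 1-MCP was given to fruit stored in O3, most members were again higher. There, in 1-MCP+O3 vs O3, 15 of 33 members were called higher and 0 lower, with a median log2 ratio of 0.97, and 28 were higher and 2 lower on both arrays. Of all sense probes, 1.37% were called higher and 24.3% were higher on both arrays. Among the other readable rows 36.3% were called higher, with a median of 1.02, and 88.9% were higher on both arrays (members 84.8%). The members thus stood near the rows chosen in the same way. Against Control, 12 members of 1-MCP+O3 peel were called higher and 0 lower, with a median of 0.94, against 2.05% of all sense probes and 43.2% of the other readable rows. On both arrays 26 members (78.8%) were higher and 1 was lower, where 26.3% of all sense probes and 89.2% of the other readable rows were higher. This comparison shares its Control extracts with the one that chose the members, as does O3 vs Control, so neither is independent of that choice. Together 10 members were called in both comparisons with 1-MCP+O3, 5 against O3 only, 2 against Control only and 16 in neither. Both comparisons use the same 1-MCP+O3 extracts on the same slide, so a call in both is not a repeat on other fruit. No member passed the Benjamini-Hochberg threshold of 0.05 over all probes in these limma fits of 2 arrays each. The lowest adjusted p was 0.422 in 1-MCP+O3 vs O3 and 0.337 in 1-MCP+O3 vs Control, and 24 members in each were higher at an unadjusted p under 0.05.

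O3 alone gave the members no common direction. In O3 vs Control 0 of 33 members were called either way by limma, and 8 had an unadjusted p under 0.05, 3 of them higher in O3. The median log2 ratio was -0.04, 7 members were higher on both arrays and 12 lower. Of all sense probes, 1.71% were called higher and 0.736% lower, 23.6% were higher on both arrays and 24% lower. Among the other readable rows 3.78% were called higher and 1.82% lower, and 30.7% were higher on both arrays and 27.5% lower. The lowest adjusted p of a member was 0.665.

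**Figure D1:**
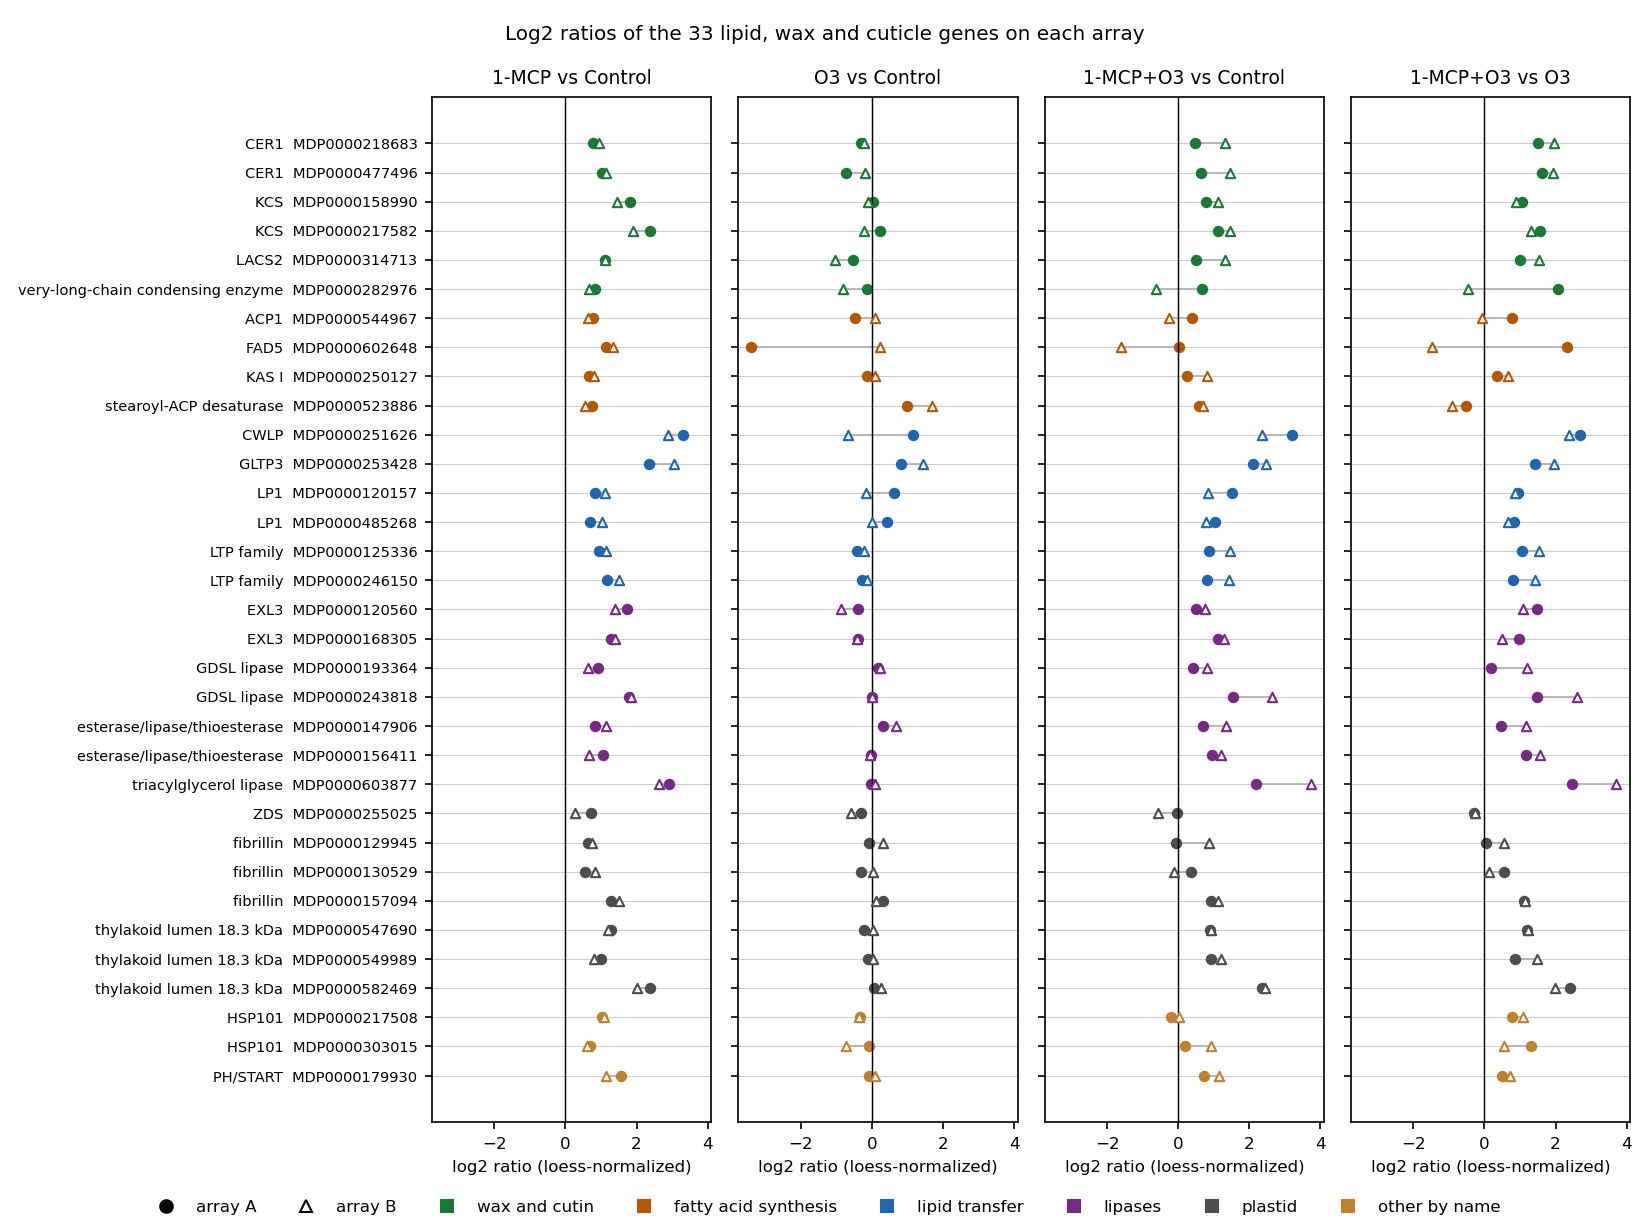
Log2 ratios of the 33 members (rows, grouped and coloured by role) in the 4 comparisons (panels), with array A as filled circles, array B as open triangles and a grey line joining them. All members lie right of 0 in 1-MCP vs Control, which selected them, while in O3 vs Control they scatter around 0, and the long lines of FAD5 and of the very-long-chain condensing enzyme mark arrays that disagree.

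Of the 6 wax and cutin members, 5 were higher on both arrays in each comparison with 1-MCP+O3, with 4 of 6 called in 1-MCP+O3 vs O3 and 2 of 6 in 1-MCP+O3 vs Control. CER1 is required for the alkanes of cuticular wax, and 2 members are matched to it. CER1 MDP0000477496 had a log2 channel level of 13.38 and 13.7 in the 1-MCP+O3 extracts A and B, against 11.76 and 11.77 in the O3 extracts on the same arrays. The log2 ratio was 1.77 ± 0.23 (SD), a 3.41-fold difference, with an unadjusted p of 0.00203 and an adjusted p of 0.425. Both 1-MCP+O3 levels lay above both O3 levels on these arrays. The other match, CER1 MDP0000218683, gave levels of 12.15 and 12.66 in 1-MCP+O3 and of 10.64 and 10.7 in O3, a ratio of 1.74 ± 0.32 (SD) or 3.33-fold (unadjusted p = 0.00361, adjusted p = 0.443). Against Control neither was called in 1-MCP+O3 peel, where array A gave ratios of 0.48 and 0.64 and array B 1.31 and 1.45. In 1-MCP vs Control the ratios were 0.78 and 0.94 for MDP0000218683 and 1.03 and 1.13 for MDP0000477496. The CER1 ratios were thus larger within O3 storage than without it on every array, and this difference was not tested. The arrays of 1-MCP vs Control lie on slide 1 and those of 1-MCP+O3 vs O3 on slide 2, so O3 storage and slide cannot be told apart in it. Both calls in 1-MCP+O3 vs O3 were lost with median centring and with limma's trend and robust options.

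A pair of members is matched to 1 gene of the 3-ketoacyl-CoA synthase (KCS) family, whose enzymes start each round of very-long-chain elongation. KCS MDP0000217582 was at 8.41 and 7.97 in 1-MCP+O3 and at 6.85 and 6.66 in O3, and the log2 ratio of 1.43 ± 0.17 (SD) was called, with an unadjusted p of 0.0025 and an adjusted p of 0.431. KCS MDP0000158990 was at 7.75 and 7.5 in 1-MCP+O3 and at 6.7 and 6.61 in O3, a ratio of 0.97 ± 0.11 (SD), also called (unadjusted p = 0.00474, adjusted p = 0.463). Both were called against Control too, at 1.29 and 0.95 (unadjusted p = 0.00347 and 0.00904). All 4 KCS calls were lost with median centring, those of MDP0000158990 also with the filter on dim probes, and its call against Control without background correction too. In O3, array A of both probes was not well above background, as was array A of Control on the second slide. Unlike CER1, both had their larger ratios in 1-MCP vs Control, at 2.39 and 1.91 for MDP0000217582 and 1.81 and 1.44 for MDP0000158990. That comparison selected them.

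LACS2, a long-chain acyl-CoA synthetase of cutin synthesis, was above Control in every 1-MCP and 1-MCP+O3 hybridisation and below it in every O3 one. Its log2 level was 11.7 and 11.86 in the 1-MCP extracts, 11.3 to 11.99 over the 4 hybridisations of 1-MCP+O3, 9.8 to 10.3 over the 4 of O3, and 10.6 to 10.85 over the 6 of Control. The 1-MCP and 1-MCP+O3 levels overlapped, while those of O3 lay below all others. The ratio in 1-MCP+O3 vs O3 was 1.01 and 1.52, a mean of 1.26 that missed the call (unadjusted p = 0.0102), and in O3 vs Control it was -0.52 and -1.05 (unadjusted p = 0.0259). The call in 1-MCP+O3 vs O3 was gained without background correction and without the replicate block, at an unadjusted p of 0.00922 and 0.00155.

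The sixth wax member, a putative very-long-chain fatty acid condensing enzyme of the same KCS family (MDP0000282976), gave ratios of 0.83 and 0.67 in 1-MCP vs Control. Its arrays went opposite ways in 1-MCP+O3 vs O3, at 2.08 and -0.45, and likewise in 1-MCP+O3 vs Control, at 0.68 and -0.63. Extract A of 1-MCP+O3 was at 11.04 and 10.84 on the 2 arrays that used it and extract B at 9.88 and 9.86, so the extracts of 1 group differed by more than most groups did.

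**Figure D2:**
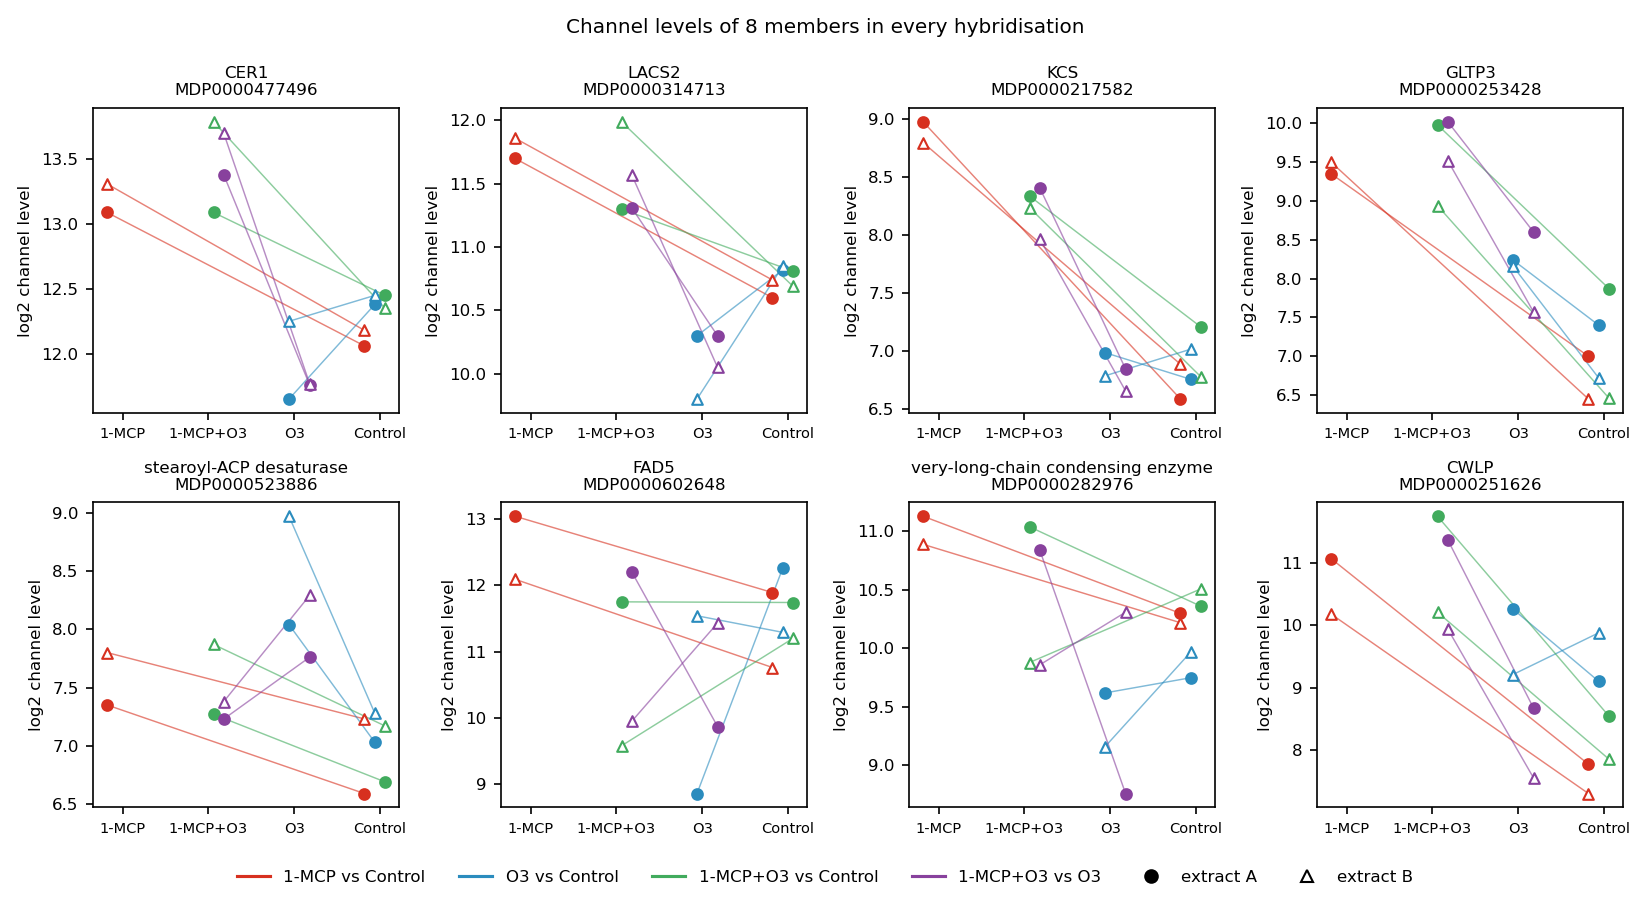
Log2 channel level (after loess and between-array scaling of mean intensity) of 8 members in every hybridisation, by group; circles are extract A, triangles extract B, colours the comparison, and lines join the 2 channels of an array. CER1, LACS2 and KCS are higher in 1-MCP and 1-MCP+O3 than in O3 and Control on every array, the stearoyl-ACP desaturase is highest in O3, and extract A of O3 and extract B of 1-MCP+O3 are low for FAD5.

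The fatty acid synthesis members behaved less alike, and 0 of 4 were called in any tested comparison, with 1 at an unadjusted p under 0.05 upward in 1-MCP+O3 vs O3. That member was KAS I (MDP0000250127), a condensing enzyme of plastid fatty acid synthesis, with ratios of 0.34 and 0.65 (unadjusted p = 0.0432), after 0.67 and 0.79 in 1-MCP vs Control. The acyl carrier protein ACP1 (MDP0000544967), which carries the growing chain, had 0.78 and 0.62 in 1-MCP vs Control but 0.78 and -0.06 in 1-MCP+O3 vs O3. Its 2 arrays also disagreed against Control, at 0.4 and -0.27 in 1-MCP+O3.

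The stearoyl-ACP desaturase MDP0000523886, of the enzymes that put the first double bond into plastid fatty acids, had the highest O3 vs Control ratio of the members. Its O3 extracts were at 8.04 and 8.97 against 7.03 and 7.28 in Control on the first slide. The ratio was 1.00 and 1.70, a mean of 1.35 ± 0.49 (SD) or 2.55-fold, with an unadjusted p of 0.0114, just outside the call. On the second slide, O3 was at 7.76 and 8.29 and Control at 6.69 and 7.17, on different arrays. The levels in 1-MCP+O3 vs O3 were 7.23 and 7.38 in 1-MCP+O3 and 7.76 and 8.29 in O3, a ratio of -0.53 and -0.91 (unadjusted p = 0.0244). Against Control, 1-MCP+O3 peel was still higher, at 0.58 and 0.70, without a call (unadjusted p = 0.0115). In 1-MCP vs Control it was higher, at 0.76 and 0.56, one of the 4 members that did not pass the call there in this processing. It was called in O3 vs Control under each of 4 alternatives: no background correction, processed signals, the filter on dim probes, and trend and robust options (unadjusted p from 0.000149 to 0.00908).

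FAD5 (MDP0000602648), a plastid desaturase of palmitate, gave the most unequal arrays. Its ratio was -3.4 and 0.24 in O3 vs Control, 0.01 and -1.62 in 1-MCP+O3 vs Control, and 2.33 and -1.48 in 1-MCP+O3 vs O3, none of them called. The levels followed the extract. Extract A of O3 was at 8.86 and 9.87 on its 2 arrays and extract B at 11.54 and 11.43. For 1-MCP+O3, extract A was at 11.75 and 12.2 and extract B at 9.58 and 9.95. The 1-MCP extracts were at 13.04 and 12.09, and Control lay between 10.76 and 12.26 over its 6 hybridisations. The low levels thus repeated on a second array and slide for O3, and on a second array for 1-MCP+O3, so 1 extract in each O3 group decided the mean. No ratio of FAD5 in the 3 tested comparisons was larger than the spread between its arrays.

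All 6 lipid transfer members were higher on both arrays in 1-MCP+O3 vs O3 and in 1-MCP+O3 vs Control, and 5 and 3 of them were called. CWLP (MDP0000251626), a proline-rich cell wall protein with a lipid transfer domain, showed the largest ratio of this role. Its level was 11.37 and 9.94 in 1-MCP+O3 and 8.67 and 7.55 in O3, a log2 ratio of 2.55 ± 0.22 (SD) or 5.85-fold (unadjusted p = 0.000768, adjusted p = 0.422). Against Control the ratio was 3.21 and 2.36, a mean of 2.79 (unadjusted p = 0.00258). In O3 vs Control its arrays disagreed, at 1.16 and -0.68. On those 2 arrays Control was at 9.1 and 9.88, above the 7.3 to 8.54 of the same extracts on the other 4 arrays. The O3 channel was higher there too, at 10.26 and 9.21, against 8.67 and 7.55 for the same extracts on the second slide. The cause was not tested. In 1-MCP+O3 and in O3 extract A lay above extract B, while the ratios of 1-MCP+O3 vs O3 lay close together, at 2.70 and 2.39.

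GLTP3 (MDP0000253428), matched to a glycolipid transfer protein that moves lipids between membranes, was higher in every comparison and on every array. It was at 10.02 and 9.52 in 1-MCP+O3 and at 8.6 and 7.57 in O3, a log2 ratio of 1.69 ± 0.37 (SD) that was called (unadjusted p = 0.00528, adjusted p = 0.466). Against Control the 1-MCP+O3 ratio was 2.11 and 2.48 (unadjusted p = 0.000835), and in 1-MCP vs Control 2.35 and 3.05. O3 vs Control gave 0.83 and 1.44, a mean of 1.14 ± 0.43 (SD) with an unadjusted p of 0.0134, which did not pass. It was called there with processed signals, the filter on dim probes, and trend and robust options (unadjusted p from 0.000503 to 0.00916). Without the replicate block its calls against O3 and against Control were lost, as were those of CWLP, and the calls of both genes against O3 were also lost with median centring.

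LP1 is a nonspecific lipid transfer protein, and both its matches changed by about the same amount. LP1 MDP0000120157 was at 9.16 and 9.37 in 1-MCP+O3 and at 8.23 and 8.49 in O3, a ratio of 0.91 ± 0.04 (SD; unadjusted p = 0.00428, adjusted p = 0.463). LP1 MDP0000485268 was at 9.11 and 9.18 in 1-MCP+O3 and at 8.29 and 8.53 in O3, a ratio of 0.73 ± 0.12 (SD; unadjusted p = 0.00994, adjusted p = 0.522), near the threshold. The call of MDP0000120157 was lost under 4 alternatives: processed signals, median centring, the filter on dim probes, and trend and robust options. The call against O3 of MDP0000485268 and its call against Control, at 0.91 (unadjusted p = 0.00731), were each lost under 5 alternatives. Of the lipid transfer family members, whose proteins share a protease inhibitor and seed storage domain, MDP0000125336 was called in 1-MCP+O3 vs O3 at 1.05 and 1.54 (unadjusted p = 0.00876, adjusted p = 0.508), a call lost with median centring and with the filter on dim probes. MDP0000246150 had 0.81 and 1.41 there and was not called (unadjusted p = 0.0191).

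All 7 lipase members were higher on both arrays in both comparisons with 1-MCP+O3, with 3 called in each. The triacylglycerol lipase MDP0000603877, of the enzymes that release fatty acids from storage fat, had the highest fitted ratio within O3 storage, set against an O3 signal that was well above background on 1 of 2 arrays. Its level was 9.36 and 9.6 in 1-MCP+O3 and 6.89 and 5.9 in O3, dim on array A. The log2 ratio was 3.08 ± 0.87 (SD; unadjusted p = 0.00752, adjusted p = 0.494), and 2.98 against Control, which was also well above background on 1 of 2 arrays (unadjusted p = 0.00966). In 1-MCP vs Control, which chose this lipase, it was well above background in both 1-MCP extracts and in neither Control extract. The mean signal was 6.8-fold higher in 1-MCP, with log2 ratios of 2.90 and 2.64 on arrays A and B. This fold sets the mean 1-MCP level against the higher, on each array, of the dim probe and the dimmest probe well above background. In O3 vs Control the ratios were -0.03 and 0.09, with each group above background on 1 array only. Both its calls were lost without background correction.

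EXL3, an extracellular GDSL lipase, has 2 matches among the members, called in different comparisons. EXL3 MDP0000120560 was at 11.41 and 11.9 in 1-MCP+O3 and at 9.91 and 10.82 in O3, a ratio of 1.29 ± 0.30 (SD; unadjusted p = 0.00683, adjusted p = 0.485). Against Control it was not called, at 0.50 and 0.75. EXL3 MDP0000168305 was called against Control only, at 1.12 and 1.29 (unadjusted p = 0.00241), and had 0.97 and 0.5 against O3 (unadjusted p = 0.0314). Both had lower levels in O3 than in Control on both arrays, at -0.39 and -0.86 for MDP0000120560 and -0.38 and -0.42 for MDP0000168305, without a call (unadjusted p = 0.035 and 0.0188). On the second slide, where O3 is set against Control through 1-MCP+O3, MDP0000120560 was again lower, at -0.99 and -0.33, but MDP0000168305 was higher in O3, at 0.15 and 0.79. The call of MDP0000120560 was lost under 5 alternatives.

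Both members named esterase/lipase/thioesterase share a match, and MDP0000156411 was called at 1.18 and 1.55 against O3 and at 0.94 and 1.21 against Control (unadjusted p = 0.00492 and 0.00473). Both calls were lost with processed signals, median centring, and trend and robust options, and the one against Control also with the filter on dim probes. MDP0000147906 had 0.46 and 1.16 against O3 and was not called (unadjusted p = 0.0526). Of the remaining GDSL lipases, MDP0000243818 reached 1.49 and 2.59 against O3, where O3 was above background on 1 array, without a call (unadjusted p = 0.016). MDP0000193364 had the unequal ratios of 0.19 and 1.19.

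Among the plastid members 2 of the 3 thylakoid lumen proteins were called in both comparisons with 1-MCP+O3. MDP0000582469 had ratios of 2.41 and 1.99 against O3 and of 2.35 and 2.44 against Control (unadjusted p = 0.00175 and 0.00028), the lowest p of a member against Control. MDP0000547690 had the smaller ratios, with means of 1.20 and 0.92 (unadjusted p = 0.00199 and 0.00366). MDP0000549989 was not well above background in Control or O3 on any array. It was called against Control, at 0.92 and 1.21 in 1-MCP+O3 (unadjusted p = 0.00506, adjusted p = 0.394 in limma). The mean was 2.1-fold, set against that dim Control signal, and it was not called against O3. Of the 3 fibrillins, which coat plastid lipid droplets and thylakoids, MDP0000157094 was called in both comparisons, at 1.12 and 1.02 (unadjusted p = 0.00243 and 0.0038), and the others had mean ratios of at most 0.4. With median centring all these calls of MDP0000582469, MDP0000547690 and MDP0000157094 were lost except that of MDP0000582469 against Control, those of MDP0000157094 were also lost with the filter on dim probes, and that of MDP0000547690 against Control under 3 further alternatives. ZDS (MDP0000255025), a desaturase of carotenoid synthesis, was lower on both arrays against O3, at -0.30 and -0.28, and was not called. The HSP101 matches and the START domain protein had mean ratios of 0.61 to 0.94 against O3 and 0 of these 3 were called in a tested comparison.

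Other genes of green tissue moved beside the members. The 58 readable genes named for photosynthesis, chlorophyll or rubisco had a median log2 ratio of 2.99 in 1-MCP vs Control, 0.11 in O3 vs Control, 2.46 in 1-MCP+O3 vs Control and 2.22 in 1-MCP+O3 vs O3, with 58 of 58 higher on both arrays in the comparisons with 1-MCP. Their part in the members' values was not tested. They were chosen from the same rows as the members.

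The median 1-MCP ratio within O3 storage stood near that without O3 for the lipid transfer and lipase members, while single members differed in either direction. The lipid transfer members had medians of 1.20 in 1-MCP+O3 vs O3 and 1.19 in 1-MCP vs Control, the lipases 1.29 and 1.33, and the wax and cutin members 1.35 and 1.10. The fatty acid synthesis members had 0.39 and 0.72. The second value of each pair comes from the comparison that selected the members, and the 2 comparisons lie on different slides, so differences between the pairs were not tested.

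**Figure D3:**
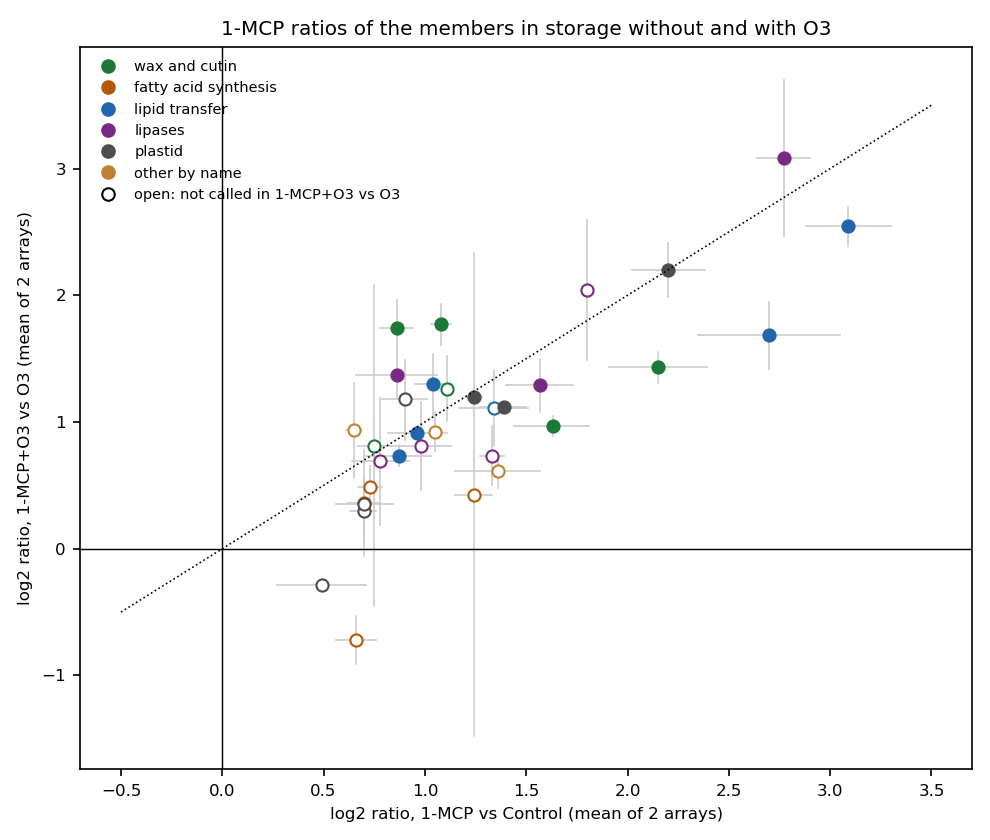
Mean log2 ratio of each member in 1-MCP+O3 vs O3 (vertical) against 1-MCP vs Control (horizontal), coloured by role, with grey lines spanning the 2 arrays and a dotted line of equal ratios; filled points were called in 1-MCP+O3 vs O3. The 2 CER1 points lie above the dotted line and the 2 KCS points below it, and ZDS and the stearoyl-ACP desaturase are the 2 points under 0.

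The O3 effect on the members could be read along 2 routes, directly on the first slide and, on the second slide, as 1-MCP+O3 vs Control minus 1-MCP+O3 vs O3. The routes use the same extracts, so they repeat the hybridisation and not the fruit. The members' median was -0.04 by the direct and -0.10 by the second route. In 8 of 33 members (24.2%) O3 was lower in all 4 ratios, against 9.67% of all sense probes and 13.4% of the other readable rows, and in 4 members (12.1%) it was higher in all 4, against 11.1% and 17.3%. The 8 lower members were both CER1 matches, LACS2, the very-long-chain condensing enzyme, EXL3 MDP0000120560, LTP family MDP0000125336, esterase MDP0000156411 and HSP101 MDP0000217508. These counts rest on sign alone, and the esterase had only -0.03 and -0.04 directly. For CER1 MDP0000218683 the ratios were -0.30 and -0.22 directly and -1.03 and -0.65 by the second route. For CER1 MDP0000477496 they were -0.73 and -0.20 directly and -0.97 and -0.48 by the second. Wax members thus made up 4 of the 8, and both KCS matches, at means of -0.04 and 0 directly, were not among them. The 4 higher members were the stearoyl-ACP desaturase, GLTP3, esterase MDP0000147906 and LP1 MDP0000485268, the last at 0.42 and 0.01 directly. The stearoyl-ACP desaturase had 1.11 and 1.61 by the second route and GLTP3 0.69 and 0.52.

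A fit of all 8 arrays together with a dye term, which counts repeated hybridisations of an extract as independent and so gives p-values that are too small, called 6 members in O3 vs Control. Higher in O3 were the stearoyl-ACP desaturase at 1.35, GLTP3 at 0.96 and esterase MDP0000147906 at 0.40, where 5.36% of all sense probes and 9.52% of the other readable rows were called higher. Lower were EXL3 MDP0000120560 at -0.64, HSP101 MDP0000217508 at -0.57 and CER1 MDP0000477496 at -0.55, where 2.57% and 5.46% were called lower. Of the 6, the stearoyl-ACP desaturase, GLTP3 and EXL3 had adjusted p-values of 0.0135, 0.0199 and 0.0449 in that fit of limma. The same fit gave 25 members an adjusted p under 0.05 upward in 1-MCP+O3 vs O3, against 5.3% of all sense probes and 73.5% of the other readable rows, and 23 in 1-MCP+O3 vs Control, against 6.05% and 74.8%. Downward it gave the stearoyl-ACP desaturase in 1-MCP+O3 vs O3, at -0.72 (adjusted p = 0.0312), against 5.3% of all sense probes, and 0 members in 1-MCP+O3 vs Control, against 4.03%, where ZDS was called lower at the unadjusted threshold, at -0.45 (unadjusted p = 0.00658).

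**Figure D4:**
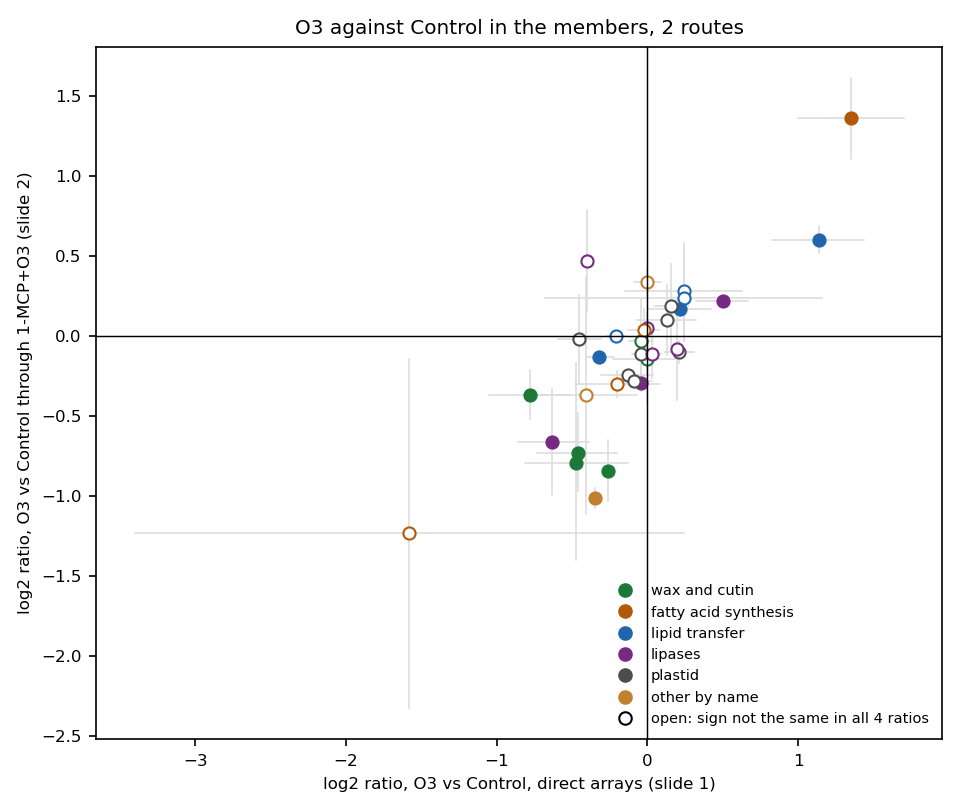
Mean log2 ratio of O3 to Control for each member on the direct arrays of slide 1 (horizontal) and through 1-MCP+O3 on slide 2 (vertical), coloured by role, with grey lines spanning the 2 replicates; filled points have the same sign in all 4 ratios. The stearoyl-ACP desaturase and GLTP3 lie apart at upper right. FAD5 lies farthest to the lower left, where 4 of the 6 wax and cutin members lie among other roles, such as EXL3 MDP0000120560 and HSP101 MDP0000217508.

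Of the lipid genes that stand in the readable rows without a term of the rule, 25 were followed as a related list, chosen from the same rows and so equally selected for 1-MCP vs Control. Of the 25, 14 were called higher in 1-MCP+O3 vs O3 and 0 lower, with a median of 1.72. There 1.37% of all sense probes and 36.3% of other readable rows were called higher. On both arrays 25 of 25 were higher, beside 24.3% of all sense probes and 88.9% of the other readable rows. Against Control 14 were called higher in 1-MCP+O3, with a median of 1.49, beside 2.05% and 43.2%, and in O3 vs Control 0 were called, with a median of -0.03. The list holds enzymes next to the members in wax and polyester synthesis. CUT1 (MDP0000392495), the condensing enzyme of stem wax, had ratios of 2.50 and 2.93 in 1-MCP+O3 vs O3 (unadjusted p = 0.00105) and 1.89 and 2.18 in 1-MCP vs Control. The 4 matches to an acyl-CoA reductase, which makes the primary alcohols of wax, had mean ratios of 1.91 to 3.75 against O3, of which 3 were called. For MDP0000120742 and MDP0000271183 the O3 signal was well above background on 1 of 2 arrays there, and Control on 0 of its arrays. Genes of this list with the same match may also hybridise with each other's RNA. FIDDLEHEAD, a condensing enzyme of the epidermis, was called for MDP0000235280 at 1.66 and 1.50 (unadjusted p = 0.00136) and not for MDP0000134273 at 2.32 and 1.13. The 4 matches to CYP86B1, a hydroxylase of very-long-chain fatty acids in suberin, had means of 1.62 to 2.86, with 3 called.

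All 33 members also have a probe for the opposite strand, which the rule did not use. These antisense probes had medians of 0.12, -0.04, 0.11 and 0.06 in 1-MCP vs Control, O3 vs Control, 1-MCP+O3 vs Control and 1-MCP+O3 vs O3. In the same order, only 9, 5, 5 and 5 of the 33 were well above background in both groups on both arrays. Most of the ratios behind these medians were thus taken near background. Called higher were 3, 0, 1 and 3 of them, against 0.593%, 0.231%, 0.295% and 0.239% of all antisense probes. The first of these counts comes from the arrays that chose the genes, 1-MCP vs Control, and nothing is read from it. In O3 vs Control limma called 0 of them lower too. CWLP accounted for 1 call in each of the 3 comparisons with 1-MCP. Its antisense ratios were 3.07 and 3.05 in 1-MCP vs Control and 2.33 and 2.71 in 1-MCP+O3 vs O3 (unadjusted p = 0.00106 in limma), as large as those of its sense probe. The other antisense calls were smaller. EXL3 MDP0000120560 had 0.95 and CER1 MDP0000477496 0.69 in 1-MCP vs Control, and CER1 MDP0000218683 had 0.72 and LACS2 0.66 in 1-MCP+O3 vs O3. The sense probe of each of these genes was also higher on both arrays.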

How the data were processed

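Peel RNA of 4 groups was hybridised on 8 two-colour Agilent arrays. The authors extracted the scanned spots with Agilent Feature Extraction. The median intensity per spot and per local background was deposited without further correction. The deposited processed intensity was background-subtracted, detrended and dye-normalized, per the file headers. Other deposited columns used are flags for background, saturation and outliers. Per array, 14 measurement columns were used and 19 were not used here. The authors then applied lowess and a Bayes-moderated test at an unadjusted 1%, per the methods.

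Here outlier spots were dropped, normexp background correction used an offset of 50, ratios were normalized by loess, and spots of a probe were averaged (24 members have 2 spots, 9 have 1). Ratios, with the first-named group on top, were fitted per comparison with limma 3.58.1 in R 4.3.3, which leaves 1 residual degree of freedom before moderation. Genes with an unadjusted p under 0.01 were called, and adjustment by Benjamini-Hochberg ran over all 133709 probes. Channel levels were taken after loess and Aquantile scaling. A ratio pairs the 2 extracts of an array. Figures were drawn with matplotlib 3.10.9.

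Members and lists were chosen with earlier results of these data known. All members are accounted for. Full values go to the wax, cutin, fatty acid synthesis and lipid transfer members and to any other called in 1-MCP+O3 vs O3 or O3 vs Control, and the rest are given more briefly. Function names come from the study's list of genes, whose fold changes and calls were not used as values. Positions and probe sequences were not analysed here. The alternatives tried were other background correction, normalization, filter, thresholds and limma options, a fit without the replicate block, a joint fit of the 8 arrays with a dye term, and leaving out each replicate.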

Additional observations from a re-analysis of the deposited data

Results flagged for a closer look

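The stearoyl-ACP desaturase MDP0000523886 was lower on both arrays of 1-MCP+O3 vs O3, with a mean log2 ratio of -0.72, and higher on both arrays of 1-MCP vs Control, with a mean of 0.66. ZDS (MDP0000255025) likewise had a mean of -0.29 in 1-MCP+O3 vs O3 and of 0.49 in 1-MCP vs Control. These were the 2 members whose arrays all moved one way in storage with O3 and all the other way in storage without it, and the difference was not tested. Groups of 2 extracts allow no test for a sample far from the others.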

How the results depend on the processing

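Ratios of 2 arrays, dim signals in several reference channels and members chosen from 1-MCP vs Control limit all values. The count of members called higher in 1-MCP vs Control (29) was 16 with processed signals, 5 with median centring, 18 with the filter on dim probes, 17 with trend and robust options and 0 at an adjusted p under 0.05, and 19 to 22 without 1 replicate. In 1-MCP+O3 vs Control (12) it was 5 with median centring, 7 with the filter, 26 with the 8 arrays and a dye term, 0 at the adjusted p, 24 at an unadjusted p under 0.05, and 21 to 23 without 1 replicate. In 1-MCP+O3 vs O3 (15) it was 2 with median centring, 9 with the filter, 26 with the dye term, 0 at the adjusted p, 24 at an unadjusted p under 0.05, and 23 to 24 without 1 replicate. In O3 vs Control (0 either way) it was 1 without background correction, 3 with processed signals, 2 with the filter, 6 with the dye term, 2 with trend and robust options, 8 at an unadjusted p under 0.05, and 4 to 6 without 1 replicate. Counts without a replicate come from the joint fit of the other 7 arrays, which takes the lone array to vary like the rest and repeated hybridisations as independent. Without the replicate block, fitted on single channels, the counts were 27 in 1-MCP vs Control, 13 in 1-MCP+O3 vs Control, 16 in 1-MCP+O3 vs O3 and 0 in O3 vs Control, which shifted each by less than 1.5 times. The cause was not tested. For most settings the share of all probes is not given, so a change in the members cannot be told apart from a change in all probes.

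The members' median log2 ratio with processed signals was 1.31 in 1-MCP vs Control, -0.17 in O3 vs Control, 1.62 in 1-MCP+O3 vs Control and 1.44 in 1-MCP+O3 vs O3. With median centring it was 1.06 in 1-MCP+O3 vs O3 and -0.13 in O3 vs Control, and -0.10 in O3 vs Control by the indirect ratio on slide 2. On the single array left without 1 replicate it was 1.03 to 1.13 in 1-MCP vs Control, -0.09 to 0.00 in O3 vs Control, 0.72 to 1.12 in 1-MCP+O3 vs Control and 1.05 to 1.14 in 1-MCP+O3 vs O3. Antisense probes called higher with the dye term were 5 in 1-MCP vs Control, 4 in 1-MCP+O3 vs Control and 5 in 1-MCP+O3 vs O3. These stand without the share of all antisense probes called in that fit, and nothing is read from them.

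Of the 22 members followed singly under the alternatives, some changed sign. In O3 vs Control, KCS MDP0000217582 was -0.08 with median centring, -0.04 with the dye term and -0.15 to 0.00 without 1 replicate. KCS MDP0000158990 was 0.02 with processed signals. The triacylglycerol lipase was -0.01 with processed signals, -0.02 with the dye term and -0.21 to 0.12 without 1 replicate. Also without 1 replicate, CWLP was -0.06 to 0.54, KAS I -0.02 to 0.04, ACP1 -0.51 to 0.01 and fibrillin MDP0000157094 -0.03 to 0.13. In 1-MCP+O3 vs Control, ACP1 was -0.09 with processed signals and 0.00 to 0.24 without 1 replicate. In 1-MCP+O3 vs O3, FAD5 was -0.44 to 1.66 without 1 replicate.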
